A study of Mus musculus with 3 samples.

Results

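C-type lectin receptors are surface proteins of macrophages, dendritic cells and neutrophils that bind sugars and lipids of microbes or of damaged cells. The 10 mouse genes described here, Clec4n, Clec4d, Clec4e, Clec5a, Clec7a, Clec4a1, Clec4a2, Clec4a3, Clec12a and Clec10a, were chosen by name, after their values in these samples were known. A probe was assigned to one of them when its transcript identifier was a RefSeq transcript of that gene. Of the 10 genes, 9 had at least 1 probe, with 13 probes in all, on an array of 41174 probes for 33269 genes or transcripts. After a filter on dim probes 7 genes with 10 probes were kept, among 18488 genes or transcripts in all.

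The samples were primary mouse embryonic fibroblasts (MEFs), connective tissue cells grown out of embryos, from embryos of stage E12.5, cultured in serum-containing medium and left untreated. One group was labelled SA1-null, that is, without the cohesin subunit SA1, and the other was labelled wild type. The sources used here do not give the allele, the mouse strain or the number of embryos per culture. Each of 3 Agilent 2-colour arrays carried RNA labelled SA1-null in the dye Cy3 and RNA labelled wild type in the dye Cy5, and the arrays are labelled as 3 biological replicates. No array had the dyes exchanged, so an effect of the dye cannot be told apart from one of the genotype. Replicate 1 was on 1 slide and replicates 2 and 3 were on another.

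Every ratio below is log2 of Cy3 (labelled SA1-null) over Cy5 (labelled wild type), after background correction and normalization within the array. The deposited table of the series runs the other way, as Cy5 over Cy3. Stag1, which encodes SA1, went against the labels: its log2 ratio was 3.34, 3.74 and 3.47 on replicates 1, 2 and 3 (mean 3.52 ± 0.21, SD, n = 3, limma adjusted p = 0.0273). These are values of its brightest probe, and their mean was the highest among all 18488 genes tested. The other Stag1 probes averaged 3.53, 2.17 and 0.59, each above 0 on every array. The last of them was not well above background in the channel labelled wild type on any array. In the deposited table, Cy5 over Cy3 stands under sample titles of KO (knockout) vs WT (wild type). There the brightest Stag1 probe averaged -3.56. The groups are therefore called by their channel labels throughout. Each direction rests on those labels and would reverse if they were exchanged, which was not tested. Of the probes, 61.3% to 66.6% were well above background in the channel labelled SA1-null, against 62.6% to 67.7% in the channel labelled wild type.

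The fibroblast identity of the cultures was checked with 12 marker genes, of which 11 were tested and all 11 were well above background in both channels. Their median log2 ratio was 0.79, and 0 of the 11 passed limma's test at an adjusted p of 0.05, while 6 had an unadjusted p under 0.05, against 7.49% of all genes. With median centring in place of loess their median was 0.38 and 0 had an unadjusted p under 0.05. Of 18 macrophage marker genes, 17 had a probe and 16 were tested. All 16 had ratios below 0 on the 3 arrays, with a median of -2.76, and 6 passed the test (limma, adjusted p under 0.05) as lower in the channel labelled SA1-null. Over all genes, 19.1% were below 0 on all 3 arrays and 0.303% passed as lower. Their summed normalised level was 5181 to 20029 in the channel labelled SA1-null, against 32107 to 186553 in the channel labelled wild type. The macrophage marker Cd163 was not well above background in either channel. Few markers of other cell types had a probe above background: 1 of 10 neutrophil, 1 of 6 mast cell, 3 of 7 dendritic cell, 4 of 6 lymphoid, 0 of 5 erythroid and 2 of 5 endothelial markers were tested. Of these 0 passed in limma, and 1, Emcn of endothelium, had an unadjusted p under 0.05. In bulk RNA, fewer cells of a type and less RNA per cell cannot be told apart. The part that the macrophage markers have in the results below was not tested.

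Many of these receptors carry no signalling motif of their own and pair with the adaptor Fcer1g (the Fc receptor gamma chain) or Tyrobp (DAP12). The adaptor's ITAM motif recruits the kinase Syk, and Card9, Bcl10 and Malt1 then pass the signal on to NF-kappaB and cytokine genes. Clec7a reaches Syk through a motif in its own tail. Other members carry an inhibitory ITIM motif that recruits the phosphatases encoded by Ptpn6, Ptpn11 and Inpp5d. In mice the genes Clec4a1, Clec4a3, Clec4a2, Clec4n, Clec4d and Clec4e stand in 1 cluster on chromosome 6, often called the Dectin-2 cluster.

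Promoter sequence was available in RefSeq on GRCm38.p6 for 8 of the 10 genes. The windows shown are the 250 bases before the annotated start of Clec4d, Clec4e, Clec5a and Clec4a2, the genes with an entry that were measured well above background in both dyes. Capitals mark GAGGAA or, on the other strand, TTCCTC, the core bound by the myeloid factor PU.1. The windows lie on chromosome 6 at chr6:123261857-123262106 (plus strand) for Clec4d, chr6:123289872-123290121 (minus strand) for Clec4e, chr6:40585806-40586055 (minus strand) for Clec5a and chr6:123122440-123122689 (plus strand) for Clec4a2. Each reads 5′ to 3′ on the strand of its gene.
Clec4d: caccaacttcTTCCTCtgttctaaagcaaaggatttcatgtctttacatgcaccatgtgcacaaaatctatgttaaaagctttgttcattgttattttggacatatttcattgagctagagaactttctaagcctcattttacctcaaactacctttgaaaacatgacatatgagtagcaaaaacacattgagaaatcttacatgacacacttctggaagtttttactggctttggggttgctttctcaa
Clec4e: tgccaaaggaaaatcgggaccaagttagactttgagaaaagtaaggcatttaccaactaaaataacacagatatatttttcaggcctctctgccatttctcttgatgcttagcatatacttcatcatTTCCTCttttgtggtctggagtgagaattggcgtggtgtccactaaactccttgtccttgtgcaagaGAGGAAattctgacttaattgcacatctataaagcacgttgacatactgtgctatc
Clec5a: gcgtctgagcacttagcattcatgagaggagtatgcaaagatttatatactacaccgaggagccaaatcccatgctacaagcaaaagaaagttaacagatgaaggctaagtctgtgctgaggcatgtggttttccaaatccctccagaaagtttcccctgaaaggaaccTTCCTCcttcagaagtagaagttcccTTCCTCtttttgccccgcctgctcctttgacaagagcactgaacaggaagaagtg
Clec4a2: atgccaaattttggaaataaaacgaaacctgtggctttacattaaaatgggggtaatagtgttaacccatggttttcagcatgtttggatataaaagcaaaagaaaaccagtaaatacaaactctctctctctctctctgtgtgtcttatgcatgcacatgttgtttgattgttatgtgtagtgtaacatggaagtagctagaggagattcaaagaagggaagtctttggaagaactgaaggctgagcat

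The Clec4d window held 1 match, whose first letter lay 240 bases before the start. The Clec4e window held 2 matches, at 123 and 56 bases, and the Clec5a window held 2, at 81 and 55 bases. The Clec4a2 window held none of these 6 letters on either strand. Of the 8 genes with an entry, 7 had a match in at least 1 window, the exception being Clec4a2. Clec7a and Clec4a3 have 2 overlapping windows each, so this count corresponds to 8 of 10 windows, against 23.3% of all 32851 promoter windows of the same length. A second motif, TTGCNNAA or TTNNGCAA on the other strand, a form of the site of C/EBP factors, was found in 2 of the 8 genes (Clec4e and Clec12a). By windows this was 2 of 10, against 9.6% of all windows. The 2 motifs did not overlap in the Clec4e window, where the second began 66 bases before the start. Both motifs were chosen with the genes known, and a match of letters is no evidence of binding. Spi1, which encodes PU.1 and was singled out after its values were seen, had log2 ratios of -1.69, -0.69 and -0.64 (mean -1.01 ± 0.59, SD, n = 3, limma adjusted p = 0.468).

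Of the 7 genes kept, 5 stood well above background in both dyes on each of the 3 arrays: Clec4n, Clec4d, Clec4e, Clec5a and Clec4a2. Each of these 5 had less signal in the channel labelled SA1-null on every array, by 3.56-fold to 12.4-fold on average. Clec4a3 and Clec10a were measured above background only in the channel labelled wild type. Clec4a1 and Clec12a were dim in both channels, and Clec7a had no probe that matched. Because the genes were chosen on this same contrast, these values are a description and carry no test.

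The first receptors by role are those that signal through Fcer1g. Clec4n encodes Dectin-2, which binds mannans of fungi. Its probe gave spot signals of 67.5, 164.5 and 170.5 scanner units in the channel labelled SA1-null on replicates 1, 2 and 3, against 2978.5, 4337.5 and 3062.5 in the channel labelled wild type. The channels did not overlap, and local backgrounds were 25 to 30.5 in Cy3 and 49 to 59 in Cy5. After normalization the log2 ratios were -3.45, -3.54 and -3.91, a mean of -3.63 ± 0.24 (SD, n = 3), or 12.4-fold lower in the channel labelled SA1-null. Among the 5 genes measured in both channels this was the lowest ratio on each array. With the scanner software's processed signals it was the lowest of the 5 on replicates 1 and 2, and Clec4d was lower on replicate 3 (-4.65, against -4.42 for Clec4n).

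Clec4d encodes MCL, also called Dectin-3, which binds mycobacterial cord factor and assists Mincle. Its signals were 534, 144 and 112 units in the channel labelled SA1-null, against 8147, 2728 and 2101.5 units in the channel labelled wild type. Both channels were brightest on replicate 1, and every value of the channel labelled SA1-null lay below every value of the channel labelled wild type. The log2 ratios were -2.20, -3.05 and -3.90 (mean -3.05 ± 0.85, SD, n = 3), or 8.26-fold lower. The ratio nearest to 0 was on replicate 1, and without that array the mean was -3.47.

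Clec4e encodes Mincle, which binds cord factor and a protein released from dying cells. Its signals were 84, 48 and 43 units in the channel labelled SA1-null, against 2240, 310 and 185.5 units in the channel labelled wild type. The signals of the channel labelled SA1-null on replicates 2 and 3 were close to the local background of that dye, although the scanner software called them well above it. The log2 ratios were -2.81, -1.38 and -1.30 (mean -1.83 ± 0.85, SD, n = 3), or 3.56-fold lower. This size depends on the background correction: the mean was -2.72 with an offset of 0 and -3.11 with processed signals. Here replicate 1 had the ratio farthest from 0, the reverse of Clec4d, and without it the mean was -1.34.

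Clec5a encodes MDL-1, a receptor of myeloid cells that pairs with Tyrobp. Its brightest probe gave 396, 187 and 147 units in the channel labelled SA1-null, against 12418, 3594 and 2558 units in the channel labelled wild type. The channels were far apart on each array and did not overlap. The log2 ratios were -3.19, -3.13 and -3.84 (mean -3.39 ± 0.39, SD, n = 3), or 10.5-fold lower in the channel labelled SA1-null. The other two Clec5a probes were dimmer and gave smaller ratios. The second had 47, 37 and 38 units in the channel labelled SA1-null, above background on 1 of 3 arrays, against 564, 199 and 171 units in the channel labelled wild type. Its mean log2 ratio was -1.37 ± 0.24 (SD, n = 3). The last was not well above background in the channel labelled SA1-null on any array, and the bound for its mean was 1.28-fold lower there. Such a bound sets the bright channel's mean normalised level against the dimmest level still well above background on each array. Where the probe's own level is higher, that level is used. The bound applies to the mean of the arrays in the fit reported, and single arrays or other settings can fall below it. With the mean of the 3 kept probes in place of the brightest, Clec5a had a log2 ratio of -1.70.

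Clec4a2 encodes DCIR1, a receptor with an ITIM that binds carbohydrates on dendritic cells and macrophages. Its brightest probe gave 96, 114 and 122 units in the channel labelled SA1-null, against 1686.5, 1193 and 786.5 units in the channel labelled wild type. The log2 ratios were -2.29, -2.23 and -2.43 (mean -2.32 ± 0.11, SD, n = 3), or 4.98-fold lower. This was the smallest spread among the 5 genes measured in both channels. A second probe had log2 ratios of -1.23, -1.21 and -1.22 and was above background in the channel labelled SA1-null on 1 of 3 arrays. A last one was above background only on 1 array, in the channel labelled wild type, and gives no fold. The Clec4a genes are close relatives in sequence, and cross-hybridisation between their probes was not tested.

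Clec4a3 encodes DCIR3, a relative of DCIR1. Its signals were 27, 32 and 34 units in the channel labelled SA1-null, not well above background on any array, against 361, 111 and 78 units in the channel labelled wild type. The bound for its mean was 1.73-fold lower in the channel labelled SA1-null, the same as its measured mean fold. The measured log2 ratios were -1.43, -0.63 and -0.32 (mean -0.79 ± 0.57, SD, n = 3). Replicate 1 had the ratio farthest from 0, and the mean of the other two arrays was -0.47.

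Clec10a encodes MGL1, a lectin of macrophages for galactose and N-acetylgalactosamine, and lies on chromosome 11. Its signals were 29, 29.5 and 26 units in the channel labelled SA1-null, not well above background on any array, against 101, 78.5 and 73 units in the channel labelled wild type. The bound for its mean was 1.26-fold lower, against a measured mean of 1.27-fold. The measured log2 ratios were -0.24, -0.28 and -0.52 (mean -0.35 ± 0.15, SD, n = 3). With median centring the mean was -0.18. Clec4a3 and Clec10a entered the kept genes only through the channel labelled wild type.

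Clec4a1 encodes DCIR4, another relative of DCIR1. It had 24, 33.5 and 31.5 units in the channel labelled SA1-null, against 61.5, 56 and 56 units in the channel labelled wild type, and was not well above background in either channel on any array. Clec12a encodes MICL, an ITIM receptor for uric acid crystals. It had 25, 35 and 29 units in the channel labelled SA1-null, against 73, 56 and 51 units in the channel labelled wild type, and was also dim in both channels on every array. For these genes no difference could be measured at this signal. Clec7a encodes Dectin-1, the beta-glucan receptor, and is not analysed here for want of a matched probe.

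**Figure D1:**
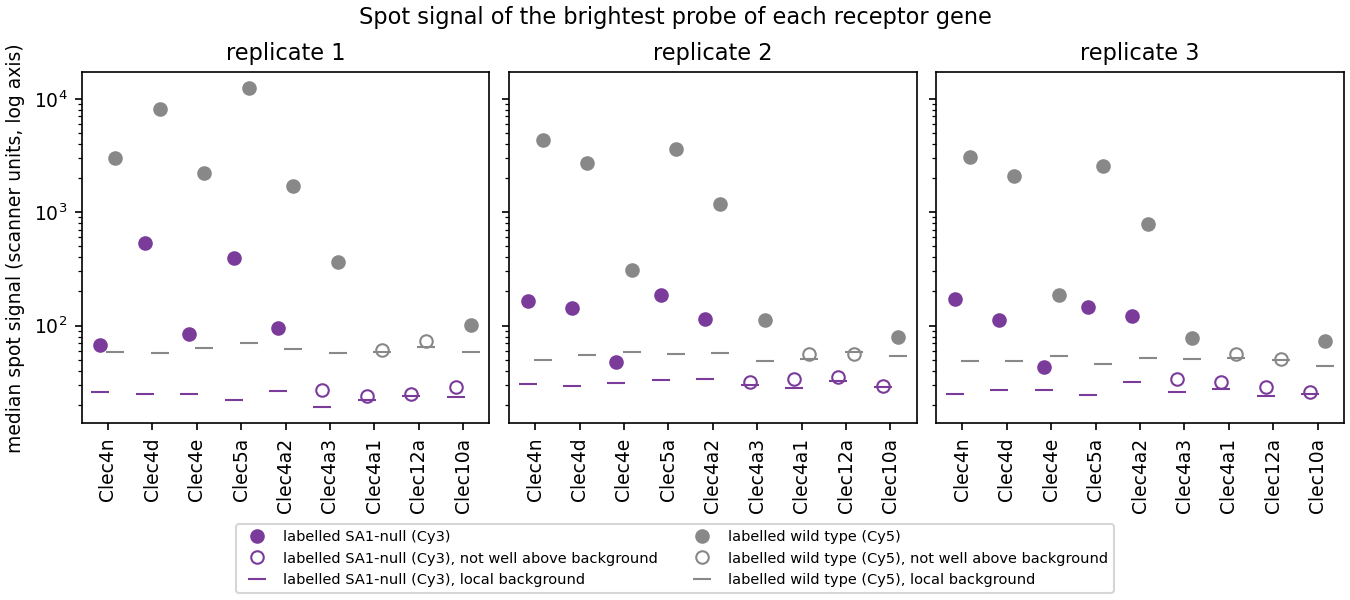
Median spot signal (scanner units, log axis) of the brightest probe of the 9 genes with a probe, on each of the 3 arrays, in the channel labelled SA1-null (purple, left of each pair) and the channel labelled wild type (grey, right). Dashes mark the local background and open circles mark signals not well above it. Clec4n, Clec4d, Clec4e, Clec5a and Clec4a2 have filled circles in both channels on all 3 arrays, while Clec4a1 and Clec12a have open circles in both.

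Ordered by mean log2 ratio from the lowest, the 5 genes measured in both channels were Clec4n, Clec5a, Clec4d, Clec4a2 and Clec4e. Clec4a3 and Clec10a have no place in this order, since their channel labelled SA1-null gave only a bound. Neighbours were compared by the difference of their log2 ratios on each array. Clec5a was above Clec4n on 3 of 3 arrays, by 0.25 ± 0.17 (SD, n = 3). The other pairs kept their order on 2 of 3 arrays, with differences smaller than their SD: 0.34 ± 0.57 for Clec4d over Clec5a, 0.73 ± 0.78 for Clec4a2 over Clec4d and 0.49 ± 0.88 for Clec4e over Clec4a2. With processed signals Clec4e (-3.11) was below Clec4a2 (-2.86). The place of Clec5a depends on its probe. With the mean of the kept probes it had the highest ratio of the 5 (-1.70), above Clec4a2 (-1.77) and Clec4e (-1.83). The differences concern ratios, and the level of one gene cannot be set against that of another, because probes differ in brightness.

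**Figure D2:**
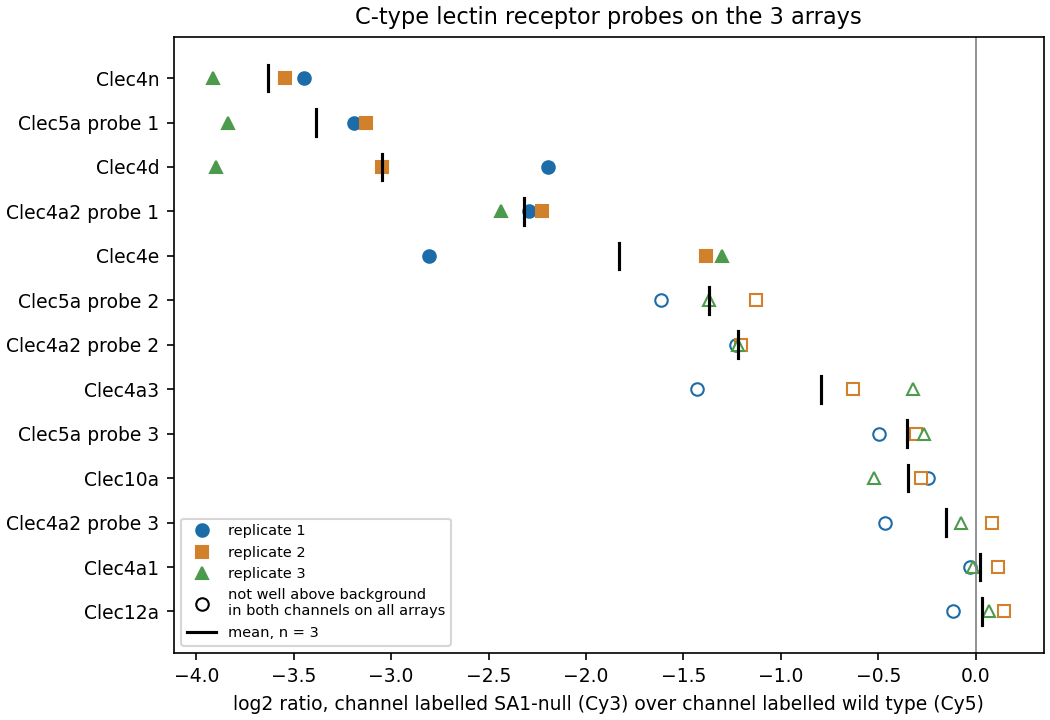
Log2 ratio of Cy3 (labelled SA1-null) over Cy5 (labelled wild type) for all 13 probes of the 9 genes, with 1 symbol per array and a black bar at the mean of 3 arrays. Filled symbols are probes with both dyes well above background on each of the 3 arrays, and these lie between -3.91 and -1.30. The probes of Clec4a1 and Clec12a, dim in both channels, lie near 0.

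The median log2 ratio was -3.05 over the 5 genes above background in both channels and -2.32 over the 7 genes kept, against -0.02 over all 18488 genes tested. In the fit over the whole array 58 genes (0.314%) passed an adjusted p of 0.05 in either direction, of which 56 (0.303%) were lower and 2 (0.0108%) higher in the channel labelled SA1-null. Clec4n, Clec5a and Clec4a2 were among them, 3 of 7, and nothing is read from that count, since the genes were chosen on the same contrast. Ratios below 0 on all 3 arrays were found in 19.1% of all genes, and the 7 genes were so by their choice. Without replicate 2 or without replicate 3, 0 genes passed, while 1294 and 736 genes had an unadjusted p under 0.05. Without replicate 1, 284 passed. The p-values test the mean ratio against 0, given the spread between these 3 pairs of cultures, moderated over all genes. A dye effect shared by the arrays would be part of that mean.

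The 5 genes with a symbol whose ratios were most like those of the receptors were found by the Euclidean distance, over the 3 arrays, to the receptors' median on each array. That median was -2.29, -2.23 and -2.43, which are the values of Clec4a2. The nearest genes were Ccl6, a macrophage chemokine, at a distance of 0.0908, Casp1 at 0.201, Pilrb1 at 0.381, Ebi3, a subunit of interleukin-27 and interleukin-35, at 0.487 and Myo1f, a myosin of leukocytes, at 0.491. Their mean log2 ratios were -2.32, -2.21, -2.44, -2.07 and -2.13. Because they were selected by these ratios, they carry no test.

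The adaptors Tyrobp and Fcer1g were lower in the channel labelled SA1-null. Tyrobp, the partner of Clec5a, had 3440, 630 and 637 units in the channel labelled SA1-null, against 96107, 11248 and 7249 units in the channel labelled wild type. The channels did not overlap, and the log2 ratios were -3.02, -3.11 and -3.32 (mean -3.15 ± 0.15, SD, n = 3, limma adjusted p = 0.0273). Fcer1g, the partner of Clec4n, Clec4d and Clec4e, had 2036, 278 and 467 units in the channel labelled SA1-null, against 68786.5, 3394 and 2653 units in the channel labelled wild type. Its log2 ratios were -3.31, -2.53 and -2.39 (mean -2.74 ± 0.50, SD, n = 3, limma adjusted p = 0.0429). Both adaptors stood well above background in either dye on every array. With median centring in place of loess, in the deposited values, or with both channels as separate samples, Fcer1g did not pass and Tyrobp did.

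Of 14 adaptor and proximal signalling genes 13 were tested. Of these 2 passed as lower in the channel labelled SA1-null (Tyrobp and Fcer1g), 0 passed as higher and 11 did not pass. The median log2 ratio of the list was -0.81 against -0.02 over all genes. Syk had log2 ratios of -1.92, -0.40 and -0.01 (mean -0.78 ± 1.01, SD, n = 3, limma adjusted p = 0.703), so its mean came mostly from replicate 1. The phospholipase gene Plcg2 averaged -1.81 ± 0.42 (adjusted p = 0.0793 in limma) and the exchange factor gene Vav1 -2.29 ± 0.68 (adjusted p = 0.0934 in limma), and neither passed. Card9 had no matched probe. Bcl10 and Malt1, which act with it, averaged -0.03 ± 0.22 (limma adjusted p = 0.971) and -0.48 ± 0.31 (limma adjusted p = 0.664).

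Among the 3 phosphatase genes, Ptpn6, which encodes SHP-1, fell by 2.70 ± 0.53 on the log2 scale (SD, n = 3, limma adjusted p = 0.0482). Its brightest probe gave 265.5, 99 and 159.5 units in the channel labelled SA1-null, against 9063, 1262.5 and 936 units in the channel labelled wild type. A second Ptpn6 probe, above background in both channels, had a mean log2 ratio of -0.40 ± 0.29, and Ptpn6 did not pass with the mean of its probes, with median centring or in the deposited values. Inpp5d, which encodes SHIP-1, averaged -2.94 ± 0.91 and did not pass (limma adjusted p = 0.0928). Ptpn11, which encodes the widely expressed SHP-2, averaged -0.37 ± 0.28 (limma adjusted p = 0.703).

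Of 25 transcription factors, inflammasome genes and cytokines downstream of the receptors 19 were tested. Of these 1 passed as lower in the channel labelled SA1-null, 0 passed as higher and 18 did not pass. The list had a median of -0.15. That median was -0.31 without replicate 1 and 0.02 without replicate 2. The gene that passed was Casp1, the protease that matures interleukin-1 beta. It had 249, 78 and 74 units in the channel labelled SA1-null, against 3972, 778.5 and 520 units in the channel labelled wild type. Its log2 ratios were -2.22, -2.06 and -2.35 (mean -2.21 ± 0.15, SD, n = 3, limma adjusted p = 0.0275). Pycard, the inflammasome adaptor ASC, averaged -1.87 ± 0.36 (limma adjusted p = 0.0616), Il1b -2.25 ± 0.58 (limma adjusted p = 0.0782) and Tnf -1.34 ± 0.29 (limma adjusted p = 0.109). Il1b was above background in the channel labelled SA1-null on 1 of 3 arrays.

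Of 8 partner receptors and ligands all 8 were tested and 0 passed in limma, while 2 (Itgb2 and Tlr2) had an unadjusted p under 0.05, against 7.49% of all genes. Their median was -0.44. The 8 include Sap130 (mean -0.03), listed by its symbol, which is not the gene of the Mincle ligand also called SAP130. Tlr2, a receptor for bacterial lipoproteins that acts beside Dectin-1, averaged -2.21 ± 1.00 (SD, n = 3), with -1.06, -2.62 and -2.94 on the 3 arrays. Itgb2, the common chain of leukocyte integrins, averaged -1.85 ± 0.61. Itgam, its partner in the complement receptor, averaged -0.80 ± 1.08, and Cd37, a tetraspanin that holds Dectin-1 at the surface, -0.46 ± 0.61. Itgam stood well above background in the channel labelled SA1-null only on replicate 1, so its other ratios are limited by the background. As with the receptors, replicate 1 stood apart in different directions: its ratio was nearest to 0 for Tlr2 and Clec4d, and farthest from 0 for Itgam, Syk and Clec4e.

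**Figure D3:**
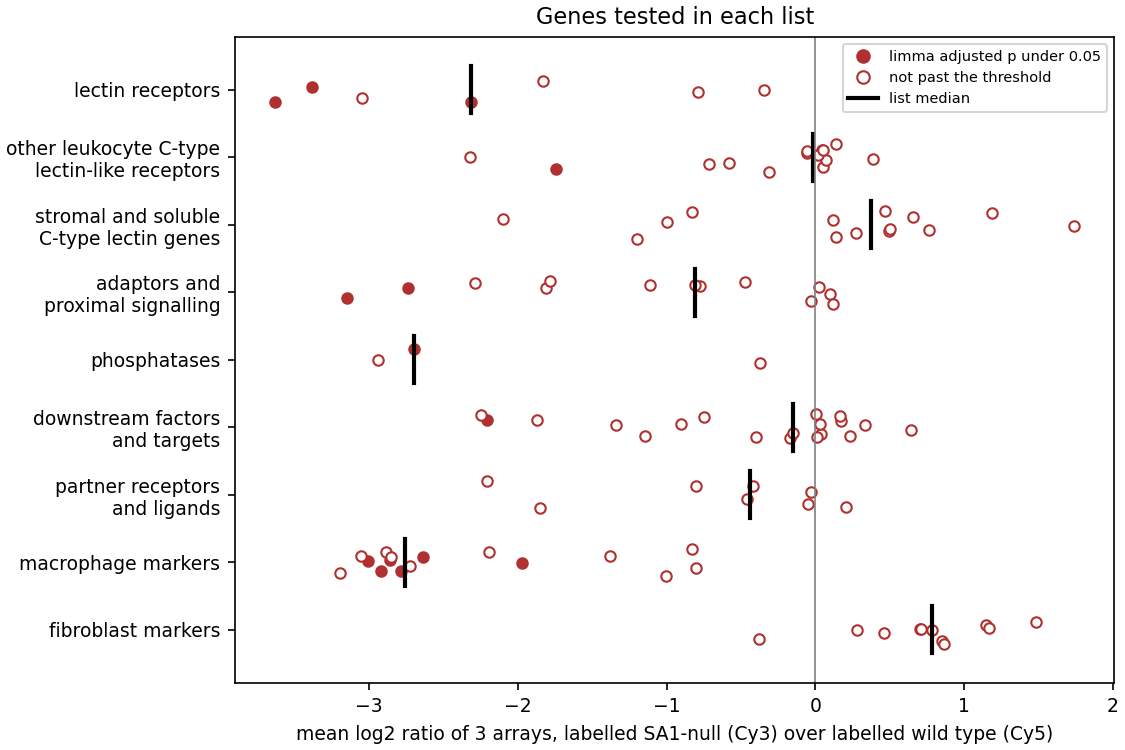
Mean log2 ratio over 3 arrays (channel labelled SA1-null over channel labelled wild type) of each gene tested, by list, with a black bar at the list median. Filled circles passed a limma adjusted p of 0.05. The receptors and the macrophage markers lie below 0, with medians of -2.32 and -2.76, and the fibroblast markers have a median of 0.79.

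Other genes with a C-type lectin-like domain were set beside the receptors. Of 35 such genes of leukocytes 30 had a probe and 14 were tested. Of these 1 passed as lower in the channel labelled SA1-null, 0 passed as higher and 13 did not pass. The list median was -0.02, equal to that of all genes to this precision. Without replicate 1 or replicate 3 it was 0.03 and 0.04, and without replicate 2 it was -0.11. The gene that passed was Clec4b1, which encodes DCAR, a receptor that pairs with Fcer1g and lies inside the same cluster. It had 40, 57 and 48 units in the channel labelled SA1-null, against 537, 451 and 302 units in the channel labelled wild type. Its log2 ratios were -1.58, -1.73 and -1.92 (mean -1.74 ± 0.17, SD, n = 3, limma adjusted p = 0.0451). With median centring, scale normalization or the deposited values it did not pass.

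Mrc1, the mannose receptor of macrophages, averaged -2.32 ± 1.11 with -3.60, -1.59 and -1.78 on the 3 arrays and did not pass (limma adjusted p = 0.263). It passed with an offset of 0 (mean -3.22), processed signals (mean -3.78), scale normalization, the slide as a fixed term or without replicate 1. In the other alternatives Mrc1 did not pass. The activation marker Cd69 averaged -0.72 ± 0.30 (limma adjusted p = 0.449) and Olr1, a receptor for oxidised lipoprotein, -0.58 ± 0.45 (limma adjusted p = 0.664). Cd69 was not well above background in the channel labelled SA1-null on any array.

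Of 23 stromal or soluble C-type lectin genes 14 were tested and 0 passed in limma, while 5 had an unadjusted p under 0.05, against 7.49% of all genes. Their median was 0.37, and -0.07 without replicate 1. Cd248, endosialin of fibroblasts and pericytes, averaged 1.19 ± 0.33 (SD, n = 3, limma adjusted p = 0.177) and was above 0 on 3 of 3 arrays, as were 13.3% of all genes. The phospholipase A2 receptor gene Pla2r1 averaged 0.50 ± 0.23 (limma adjusted p = 0.616), the collagen receptor gene Mrc2 0.47 ± 0.19 (limma adjusted p = 0.623) and the scavenger receptor gene Colec12 -0.83 ± 0.70 (limma adjusted p = 0.656). No difference between these lists and the receptors was tested.

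The genes around the cluster on chromosome 6 were read in the order of the RefSeq gene table, after their values were seen. On one side, Foxj2, C3ar1 and Necap1 had mean log2 ratios of -0.03, -0.93 and -0.16. Inside the cluster the genes tested ran, in order, as Clec4a3 at -0.79 (dim in the channel labelled SA1-null), Clec4b1 at -1.74, Clec4a2 at -2.32, Clec4n at -3.63, Clec4d at -3.05 and Clec4e at -1.83. On the other side, Pex5, Clstn3 and C1rl had 0.40, -1.11 and 0.11, and Cd163 was dim in both channels. None of these 6 flanking genes passed the test, with limma adjusted p-values of 0.534 to 0.970. C3ar1, a complement receptor of myeloid cells, was at -1.75 on replicate 1, against -0.58 and -0.46 on the other two arrays.

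**Figure D4:**
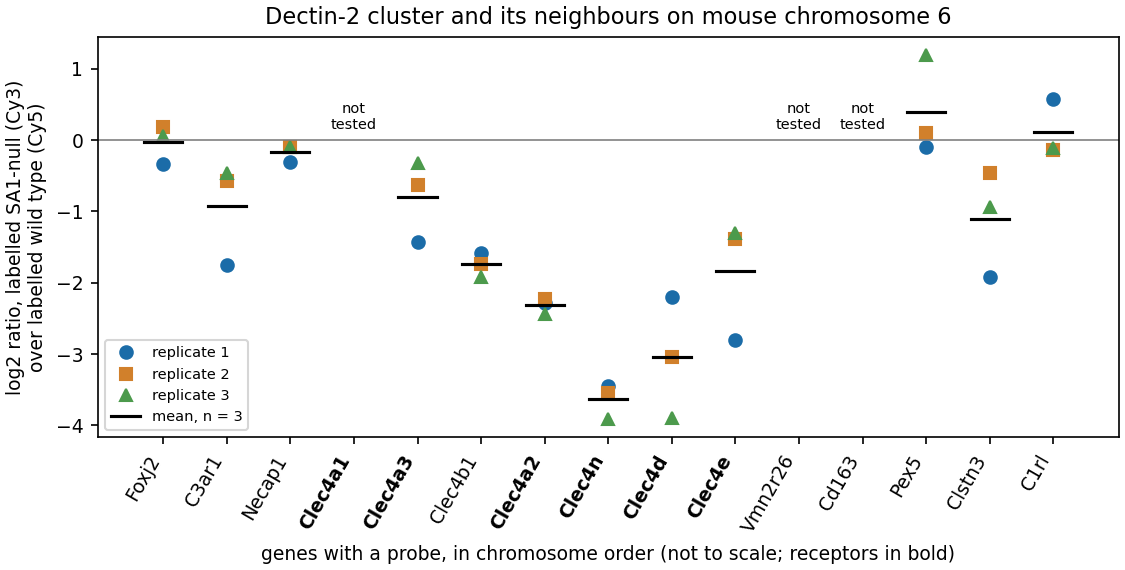
Log2 ratio (channel labelled SA1-null over channel labelled wild type) on each of the 3 arrays for the genes with a probe in and beside the cluster on chromosome 6, in chromosome order and not to scale, with a bar at the mean. Clec4n and Clec4d have the lowest means, -3.63 and -3.05, and the 6 tested flanking genes have means between -1.11 and 0.40.

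Clec5a and Clec10a lie elsewhere. Beside Clec5a, which had a log2 ratio of -3.39, the nearest tested genes with a symbol on either side were Prss37 at -0.03 and Try5 at 0.04. Beside Clec10a, with -0.35, the asialoglycoprotein receptor gene Asgr2 and the paralog Mgl2 on one side were at 0.14 and 0.02, and Slc16a11 on the other was at -0.33. None of these neighbours passed the test.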

How the data were processed

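RNA of 3 pairs of cultures was measured on 3 Agilent 2-colour arrays. Per the file headers, the authors' scanner files were made by Feature Extraction 10.1.1.1 (replicate 1) and 10.7.3.1 (replicates 2 and 3). The scanner files hold, per the file headers, scanned intensity values of spot and local background per dye, not normalized, and processed intensity values after background subtraction, detrending and dye normalization. Per the file headers, their log10 ratio was computed from the processed values as Cy5 over Cy3. The deposited table holds log2 values made with limma, per the submitters' processing notes. The sources used here do not give its background correction, normalization or centring. It correlated with log2 Cy5 over Cy3 at 0.985, 0.982 and 0.997 across probes, with column medians of -0.02, -0.02 and -0.01, which gives its scale and direction.

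Median spot signals were corrected with normexp (offset 50) and normalized by loess within arrays in limma 3.58.1 under R 4.3.3. Control and flagged spots had weight 0 and were then left out (116, 125 and 207 flagged spots); 0 spots were saturated. Kept were 24117 probes, well above background in 1 channel on all 3 arrays. The brightest probe stood for a gene, which gave 18488 genes, 12028 with a symbol and 6460 known by accession. Symbols came from RefSeq transcripts of GRCm38.p6, which is not stated to be the build of the array, so array coordinates were not used.

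The log2 ratio was tested against 0 with lmFit and eBayes, with Benjamini-Hochberg adjustment over all genes and a threshold of 0.05. The test was tried on simulated data, where it recovered 0% of 2-fold, 61.2% of 4-fold and 75.8% of 8-fold changes. A gene that did not pass is thus not shown to be unchanged. The array pairs the cultures, so each ratio is within a pair. Precision is limited by the 3 arrays. The receptors and the lists were chosen with earlier results of these data known. Named genes are the receptors, Stag1, the main adaptors, up to 4 genes of smallest p per list and the 5 nearest profiles. The genomic neighbours, the motifs, Spi1, Bcl10 and Malt1 were added after values were seen. Alternatives covered background, normalization, filters, probes, variance, slide and replicates. The slide as a random block was not run with 3 arrays.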

Additional observations from a re-analysis of the deposited data

How the results depend on the processing

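The log2 ratios of the 7 receptors kept their sign under every alternative that measured them. Of 110 such values, 92 moved by less than 1 SD between arrays and 18 moved by more. Part of the 92 could not move. The changes of filter, the intensity trend and the separate channels left each measured ratio as it was. So did the mean of the kept probes for genes with 1 kept probe. The count therefore overstates how little the ratios depend on the processing. Clec10a ranged from -2.72 (processed signals) to -0.18 (median centring), and Clec4a3 from -3.87 (processed signals) to -0.47 (without replicate 1).

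Of all genes, 118 passed with no background subtraction, 265 with an offset of 0, 325 with processed signals, 34 with median centring, 160 with scale normalization, 0 without the filter on dim probes (limma; 1982 at an unadjusted p under 0.05), 92 with both channels required above background, 113 with an intensity trend and 1772 with the slide as a fixed term, of which 73.6% were lower in the channel labelled SA1-null, against 96.6% in the fit reported. Leaving out 1 replicate gave 0 to 284. With both channels as separate samples and no replicate block, 102 genes passed, in place of the 58 of the paired ratios.

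Receptors passing, 3 in the fit reported, were 5 with an offset of 0, 7 with processed signals, 0 without the filter, 6 with the slide term and 0 to 5 with 1 replicate left out. Their median was -2.47 with no subtraction, -2.79 with an offset of 0, -3.47 with processed signals, -2.57 with median centring (where all genes had a median of -0.30), -2.16 in the deposited values, -1.83 without the filter, -3.05 with both channels required and -1.77 with the mean of the kept probes.

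Of the 43 signalling genes tested, 4 passed in the fit reported, against 8 with no subtraction, 11 with an offset of 0, 13 with processed signals, 2 with median centring, 9 with scale normalization, 2 in the deposited values, 0 without the filter, 8 with a trend, 19 with the slide term and 0 to 13 with 1 replicate left out. Of the 28 other C-type lectin genes, 1 passed, against 3 with an offset of 0, 3 with processed signals, 0 with median centring, 0 in the deposited values, 0 without the filter, 2 as separate channels, 9 with the slide term and 0 to 3 with 1 replicate left out. Tyrobp and Casp1 passed in each alternative that called any gene. Without the filter more genes were tested; the cause of these shifts was not tested. Signal over background (1.84 to 2.98 in Cy3, 1.96 to 4.02 in Cy5) limits Clec4a1, Clec4a3, Clec10a and Clec12a.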
